A study of Mus musculus with 6 samples.

Results

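The genes described here are 10 members of fibroblast growth factor (FGF) signaling and its feedback inhibition, namely the ligands Fgf15 and Fgf7, the FGF carrier protein Fgfbp1, the receptors Fgfr1 and Fgfr2, the inhibitors Spry1, Spry2, Spry4 and Dusp6, and the epidermal growth factor (EGF) receptor ligand Hbegf. They are 10 of the 16557 genes measured, and they were chosen by name with their UMIs (unique molecular identifiers, 1 per captured RNA molecule) and positive cells per tumor in tumor cells and in other cells already known. Their levels in tumor cells against other cells and in one tumor subtype against the other are therefore given as a description, without a test. The 3 MYC spinal tumors are called spinal 1 to 3 and the 3 extracranial rhabdoid tumors eRT 1 to 3. All 10 genes were listed for spinal 3, 9 for spinal 1 and 5 for spinal 2, and 8, 7 and 7 for eRT 1, eRT 2 and eRT 3. A gene is listed only when at least 3 cells of the tumor hold it, and a member missing from a tumor's list was counted as 0 there. Fewer than 3 cells of such a tumor may still hold UMIs of the gene. The limits given below for a missing gene do not cover those UMIs.

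Murine rhabdoid tumors lacking Smarcb1, which encodes a core part of SWI/SNF chromatin remodelers, were profiled by droplet-based single-cell RNA sequencing of the 3′ ends of transcripts. The 3 MYC spinal tumors came from Rosa26-creERT2::Smarcb1 fl/fl mice aged 19, 26 and 17 weeks (spinal 1, spinal 2 and spinal 3). The eRT came from a Rosa26-creERT2::Smarcb1 fl/fl mouse aged 17 weeks (eRT 1, a gland) and from Sox2-creERT2::Smarcb1 fl/fl mice aged 29 and 22 weeks (eRT 2, the jaw, and eRT 3, the shoulder). The ages are those of the labels, and the list of mice in the study gives a different age for the mouse with the gland tumor. All 6 mice carried the floxed Smarcb1 alleles and were exposed to tamoxifen at 50 mg/kg on embryonic day 6.5. The Rosa26 promoter is active in nearly all cell types and the Sox2 promoter in early embryonic and neural progenitors, so cells outside the tumor can also have lost Smarcb1. The cre driver, the sampled site and the subtype cannot be told apart for eRT 2 and eRT 3, and each tumor is 1 animal and 1 library.

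FGF ligands bind receptor tyrosine kinases together with heparan sulfate and drive the RAS-ERK cascade. ERK in turn induces its own brakes, among them the Sprouty proteins, which act between receptor and RAF, and Dusp6, a phosphatase that removes phosphate from ERK in the cytoplasm. Transcript levels of Sprouty genes, Dusp6 and the ETS factors Etv4 and Etv5 are widely used as readouts of FGF-ERK activity, although other receptor tyrosine kinases induce them too.

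After filtering, 22163 cells with 3841706 to 26184224 UMIs per tumor remained, and the median cell held 916 to 5211 UMIs. Tumor cells were taken as the clusters whose Smarcb1 level was under 0.25 of the level in immune-like cells. There were 96, 15 and 1460 of them in spinal 1, spinal 2 and spinal 3, and 68, 204 and 626 in eRT 1, eRT 2 and eRT 3, or 11.1% of all cells. Most other cells were immune-like, namely 1335 of 1373, 4941 of 5734 and 3740 of 5280 in spinal 1, spinal 2 and spinal 3. In eRT 1, eRT 2 and eRT 3 these were 1437 of 2075, 1651 of 1838 and 2887 of 3394. Smarcb1 itself lay between 0 and 6.4 counts per 1000000 UMIs (CPM) in tumor cells and between 27.1 and 60.1 CPM in other cells, but it chose the clusters and so checks no label. Some features of the libraries bear on the members: spinal 3 holds most spinal tumor cells, the 15 tumor cells of spinal 2 hold 44738 UMIs, so that 3 UMIs there already correspond to 67.1 CPM, and 91 of the 96 tumor cells of spinal 1 formed a subcluster of their own led by Cxcl12, Inmt and Apod. A further spinal cluster of 262 cells, led by Klk8, Fez1 and Nes, lay at 0.39 of the expected Smarcb1 level and was counted with the other cells. Fibroblast markers were raised in the main eRT tumor clusters, and epithelial markers in a cluster of 40 tumor cells, 38 of them from eRT 1.

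Of the 10 members, 6 were higher in tumor cells than in other cells of every tumor that held them: both ligands, Fgfbp1, both receptors and Spry4. Of the 14972 genes listed in at least 2 tumors, 15.6% met the same description, and since this contrast chose the members nothing is read from the count. Between 84.9% and 93.9% of the UMIs of each of these genes fell into tumor cells, which carried 19.9% of all UMIs. The remaining inhibitors Spry1, Spry2 and Dusp6 were measured on both sides, with 40.8%, 31.3% and 20.8% of their UMIs in tumor cells, and Hbegf was higher in tumor cells of 3 of 6 tumors.

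**Figure D1:**
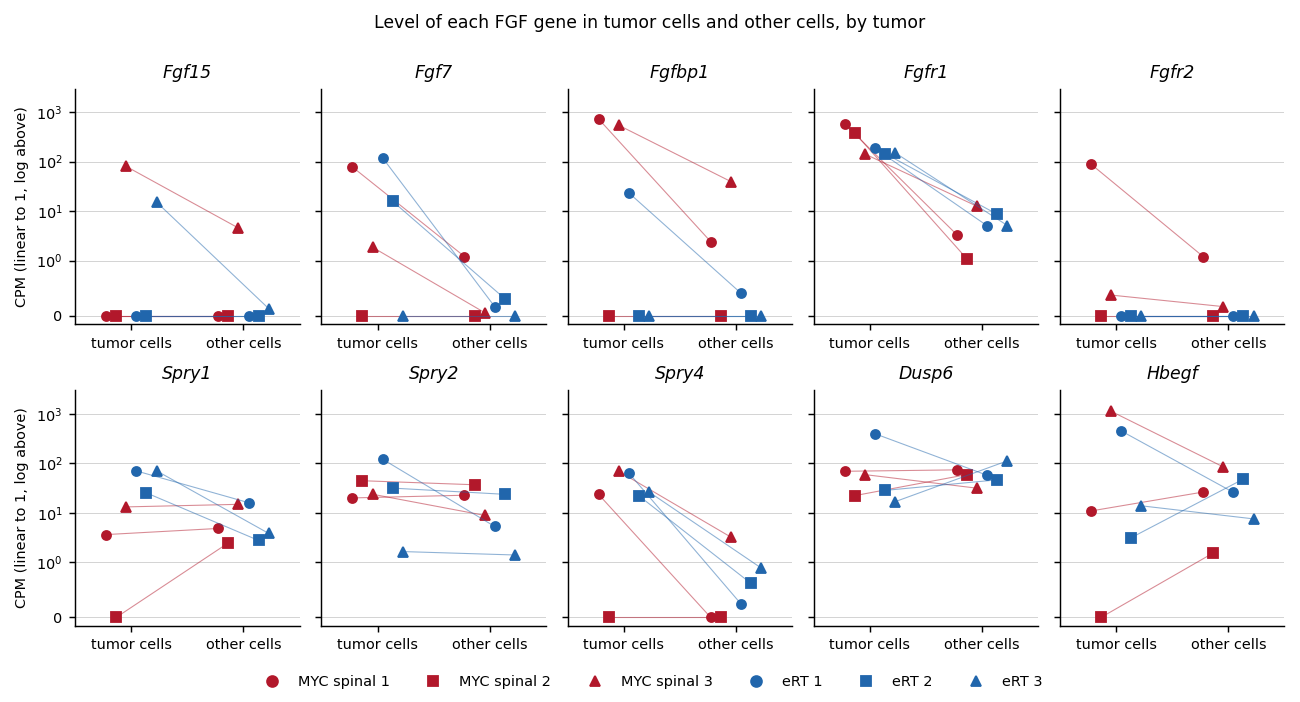
Level in CPM (linear to 1, logarithmic above) of each of the 10 genes in tumor cells and other cells; each point is the sum over the cells of 1 tumor, a line joins the 2 values of a tumor, and color gives the subtype. Fgfr1 and Spry4 lay higher in tumor cells in 6 and 5 tumors, while Dusp6 lay higher in 2 of 6.

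Fgf15, the mouse counterpart of human FGF19 and an embryonic midbrain and gut ligand, was seen in 2 tumors. Tumor cells of spinal 3 held 641 Fgf15 UMIs in 286 cells (80.0 CPM), those of eRT 3 held 46 UMIs in 25 cells (15.2 CPM), and the gene was counted as 0 in spinal 1, spinal 2, eRT 1 and eRT 2. Those 4 do not list the gene, and a true count of 0 would allow up to 5.48, 67.1, 6.41 and 4.75 CPM in their tumor cells. The level of spinal 2 was thus not measured at a useful depth. Other cells held 83 UMIs in spinal 3 (4.57 CPM), of which 41 lay in 240 cells of the Klk8-led cluster (71.7 CPM), and 1 UMI in eRT 3. In spinal 3, 19.6% of tumor cells held an Fgf15 UMI (exact 95% binomial interval 17.6% to 21.7%), against 2.79% of lymphoid-like cells, and after each cell was reduced to 1000 UMIs the shares were 5.21% and 0%.

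Within the tumor cells of spinal 3, Fgf15 was uneven. It reached 196 CPM in 185 cells of a subcluster led by Csf3, Rnd1 and Itga3, of which Fgf15 is itself a leading gene, and 1.8 CPM in 362 cells of a subcluster led by Btbd17, Dlk1 and Fbxo2. The 286 cells with an Fgf15 UMI had a median of 7263 UMIs and the 1174 cells without one 4314.5 UMIs. Scaled to their UMIs, the cells with Fgf15 held 1374 CPM of Hbegf against 1034 CPM, 629 CPM of Fgfbp1 against 511 CPM, and 92.8 CPM of Fgfr1 against 163 CPM. For Spry4 the values were 71.9 CPM against 68.2 CPM. These are cells of 1 library that also differ in depth, so no test applies.

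Fgf7, a mesenchymal ligand of the epithelial splice form of Fgfr2, showed a different distribution. It lay at 78.5 CPM in tumor cells of spinal 1 and 1.87 CPM in spinal 3, at 120 CPM in eRT 1 and 15.8 CPM in eRT 2, and was counted as 0 in spinal 2 and eRT 3. Neither of these tumors lists the gene, and in eRT 3 a true count of 0 would allow at most 0.993 CPM. Other cells held 8 of the 132 Fgf7 UMIs in all. Of the tumors with Fgf15, spinal 3 thus held 1.87 CPM of Fgf7 and eRT 3 did not list it. The tumors with the highest Fgf7, eRT 1 and spinal 1, did not list Fgf15, so single cells there may still hold it.

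Among the other FGF ligands of the pathway list, Fgf2, a widely made ligand without a signal peptide, was the only one deep enough for the tests. Its tumor-cell levels were 9.1, 0 and 147 CPM in spinal 1, spinal 2 and spinal 3, and 62.0, 4.8 and 30.1 CPM in eRT 1, eRT 2 and eRT 3. Fgf10 reached 18.6 CPM in spinal 3 and 51.3 CPM in eRT 1, Fgf17 71.2 CPM in spinal 1 and 23.5 CPM in eRT 1, and Fgf1 59.8 CPM in eRT 1. Of the 105 genes of the list, 89 could be read, and the other 16, among them Fgf8, Fgfr3, Fgfr4 and the co-receptors Klb and Kl, were not analysed here.

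Fgfbp1, a secreted protein that releases FGFs from heparan sulfate, was abundant in tumor cells of 2 spinal tumors. It lay at 732 CPM in spinal 1 and 544 CPM in spinal 3, where 50.0% and 57.1% of tumor cells held a UMI, and at 23.5 CPM in eRT 1. No UMI was counted in spinal 2, eRT 2 or eRT 3, with upper limits of 67.1, 4.75 and 0.993 CPM. MYC spinal tumor cells averaged 425 ± 380 CPM and eRT tumor cells 7.83 ± 13.6 CPM (SD, n = 3 each). The spread within the spinal group was as wide as the mean, because spinal 2 held none.

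Fgfr1, the FGF receptor typical of mesenchymal and neural progenitor cells, was present in tumor cells of all 6 tumors. Its levels were 579, 380 and 143 CPM in spinal 1, spinal 2 and spinal 3, and 186, 146 and 151 CPM in eRT 1, eRT 2 and eRT 3. Other cells of the same tumors lay between 1.09 and 12.5 CPM, in the contrast that chose the members. The sums of the eRT varied little (161 ± 21.8 CPM, SD, n = 3), while the spinal tumors ranged more widely (367 ± 218 CPM). The sum of eRT 2 joins unlike cells. Its 58 cells in 1 tumor cluster held 247 CPM (exact Poisson interval 197 to 306 CPM). Its 144 cells in another, with a median of 1580.5 UMIs, held 18.1 CPM (5.87 to 42.2 CPM). The 17 UMIs of spinal 2 give an exact Poisson interval of 221 to 608 CPM.

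Between 19.1% and 88.5% of tumor cells held an Fgfr1 UMI, against 0% to 2.23% of lymphoid-like cells. Reduced to 1000 UMIs per cell, the range in tumor cells was 7.07% to 46.3%, and in lymphoid-like cells 0% to 0.559%. Comparable levels outside tumor cells were seen in 75 fibroblast-like cells of eRT 3 (141 CPM), from a cluster of 80 cells at 0.324 of the expected Smarcb1 level. They were also seen in 127 cells of spinal 3 (130 CPM) in an unnamed cluster led by Mcpt8, Prss34 and Sox4, whose Smarcb1 level was 0.706 of the expected one.

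Fgfr2, the receptor of Fgf7 and Fgf10 in epithelia, was listed for spinal 1 and spinal 3. Tumor cells of spinal 1 held 49 UMIs in 31 of 96 cells (89.4 CPM) and those of spinal 3 held 3 UMIs in 1460 cells (0.374 CPM). The gene is not listed for eRT 1 and was counted as 0 in its 68 tumor cells, where a true 0 would allow up to 6.41 CPM. Fgf7 and Fgfr2 were thus both measured in the tumor cells of spinal 1, the library whose tumor cells stood apart. In eRT 1 Fgf7 was measured and Fgfr2 not listed.

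Spry4 was the inhibitor most closely limited to tumor cells. Its tumor-cell levels were 23.7, 0 and 69.3 CPM in spinal 1, spinal 2 and spinal 3, and 64.1, 22.2 and 26.5 CPM in eRT 1, eRT 2 and eRT 3. Summed over the other cells of a tumor it was at most 3.25 CPM, but some clusters among them held more. In eRT 3, 75 fibroblast-like cells held 22.1 CPM (exact Poisson interval 7.17 to 51.5 CPM). In spinal 3, 85 cells of an osteoclast-like cluster held 31.7 CPM and the 127 cells of the Mcpt8-led cluster 29.9 CPM. Subtype means were close to each other relative to their spread, at 31.0 ± 35.2 CPM for MYC spinal and 37.6 ± 23.1 CPM for eRT (SD, n = 3 each). The spinal mean includes a 0 for spinal 2, which does not list the gene and where a true 0 would allow up to 67.1 CPM.

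Spry1 lay higher in the tumor cells of eRT. Tumor cells held 3.65, 0 and 13.2 CPM in spinal 1, spinal 2 and spinal 3, against 70.5, 25.3 and 70.9 CPM in eRT 1, eRT 2 and eRT 3, and the groups did not overlap, as for 6.4% of the 15473 genes with a UMI in tumor cells. The limit of 67.1 CPM for spinal 2 does reach into the eRT range. In other cells the means were 7.42 ± 6.60 and 7.58 ± 7.41 CPM (SD, n = 3 each). Levels outside tumor cells were high in osteoclast-like cells, with 28.6 CPM in spinal 3 and 34.4 CPM in eRT 1, against 2.33 and 4.504 CPM in the macrophage-like cells of the same tumors. In eRT 3 the 10 osteoclast-like cells held 1 UMI, and the 75 fibroblast-like cells held 7 UMIs (30.9 CPM, exact Poisson interval 12.4 to 63.7 CPM).

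Spry2 in tumor cells ranged from 1.66 CPM in eRT 3 to 122 CPM in eRT 1, with 20.1, 44.7, 23.8 and 31.7 CPM in spinal 1, spinal 2, spinal 3 and eRT 2. Other cells held 22.8, 37.1 and 8.91 CPM in the spinal tumors and 5.32, 23.8 and 1.41 CPM in eRT 1, eRT 2 and eRT 3. Tumor cells were higher in 5 of 6 tumors, yet for spinal 1, spinal 2, eRT 2 and eRT 3 the other-cell level lay inside the Poisson interval of the tumor-cell level.

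Dusp6 was the only member lower in tumor cells than in other cells in most tumors. Tumor cells held 69.4, 22.4 and 59.4 CPM in spinal 1, spinal 2 and spinal 3, and 397, 28.5 and 16.9 CPM in eRT 1, eRT 2 and eRT 3. Other cells held 74.1, 59.5 and 31.6 CPM, and 57.6, 46.6 and 113 CPM. Tumor eRT 1 stood far above the rest, and without it no tumor exceeded 69.4 CPM.

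Hbegf, a heparin-binding EGF receptor ligand shed from the cell surface by ADAM proteases, was carried by 2 tumors. It lay at 1130 CPM in tumor cells of spinal 3, where 78.6% of cells held a UMI, and at 453 CPM in eRT 1. In spinal 1, eRT 2 and eRT 3 it was 10.95, 3.17 and 13.9 CPM, and spinal 2 held none. The SD exceeded the mean in both subtypes (380 ± 649 CPM in MYC spinal, 157 ± 257 CPM in eRT, n = 3 each). Of all Hbegf UMIs in the 6 tumors, 92.2% came from spinal 3, and of all Fgfbp1 UMIs 92.3%.

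In spinal 3 both transcripts also appeared in cells that are not known to make Fgfbp1. The ratio of Hbegf to Fgfbp1 UMIs was 2.08 in tumor cells, 2.08 in T cell-like, 2 in neutrophil-like, 1.5 in monocyte-like, 1.41 in macrophage-like and 1.33 in NK cell-like cells. The neutrophil-like ratio rests on 8 and 4 UMIs and the NK cell-like ratio on 4 and 3. Of these immune-like cells, 2.17% to 6.93% held an Fgfbp1 UMI, at levels from 9.56 CPM in macrophage-like to 118 CPM in T cell-like cells. In the T cell-like cluster of 82 cells, all 26 Fgfbp1 UMIs lay in 7 cells and the 53 Hbegf UMIs in 10. Osteoclast-like cells, with 925 Hbegf and 300 Fgfbp1 UMIs, had a ratio of 3.08.

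**Figure D2:**
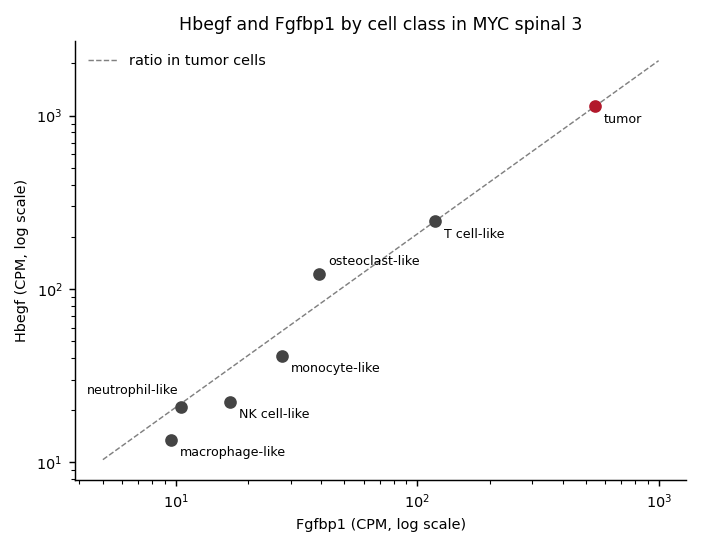
Hbegf against Fgfbp1, both in CPM on logarithmic axes, for 7 cell classes of spinal 3; each point is the sum over 1 class and the dashed line marks the ratio in tumor cells. T cell-like cells and neutrophil-like cells (8 Hbegf and 4 Fgfbp1 UMIs) lie on or near the line at lower levels, and osteoclast-like cells above it.

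Hbegf was also held by T cell-like clusters led by Cd163l1, Actn2 and Il17a, at 154 CPM in 194 spinal cells, 167 of them from spinal 1, and 130 CPM in 264 eRT cells. An osteoclast-like spinal cluster of 86 cells with a median of 8356.5 UMIs held 490 CPM of Hbegf and 317 CPM of Fgfbp1, and the 127 cells of spinal 3 in the Mcpt8-led cluster held 560 and 329 CPM. Doublets were not removed, and their part and that of free RNA in the values of both genes outside tumor cells were not tested.

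Within eRT 1 the 6 genes Fgf7, Spry1, Spry2, Spry4, Dusp6 and Hbegf were concentrated in the epithelial-like tumor cluster. This small cluster was called tumor by its Smarcb1 level, for which at least 10 expected Smarcb1 UMIs were required. Since eRT 1 lay in a gland, gland epithelium that lost Smarcb1 cannot be told apart from tumor cells in it. Fgf7 lay at 222 CPM in its 38 cells against 21.0 CPM in the other 30 tumor cells, and Dusp6 at 691 CPM against 113 CPM. Spry4 lay at 117 against 12.6 CPM, Spry2 at 191 against 54.6 CPM, and Spry1 at 113 against 29.4 CPM. Hbegf lay at 639 against 273 CPM, with 147 of 212 UMIs in the epithelial-like cluster, and none of these 6 pairs of 95% Poisson intervals overlapped. Fgfr1 was lower there, at 130 CPM (88.0 to 186) against 239 CPM (181 to 310), with intervals that overlap. The intervals cover counting error only, and the 2 sets of cells come from 1 animal, so no test applies. Of the 186 Dusp6 UMIs in tumor cells of eRT 1, 159 came from the epithelial-like cluster.

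**Figure D3:**
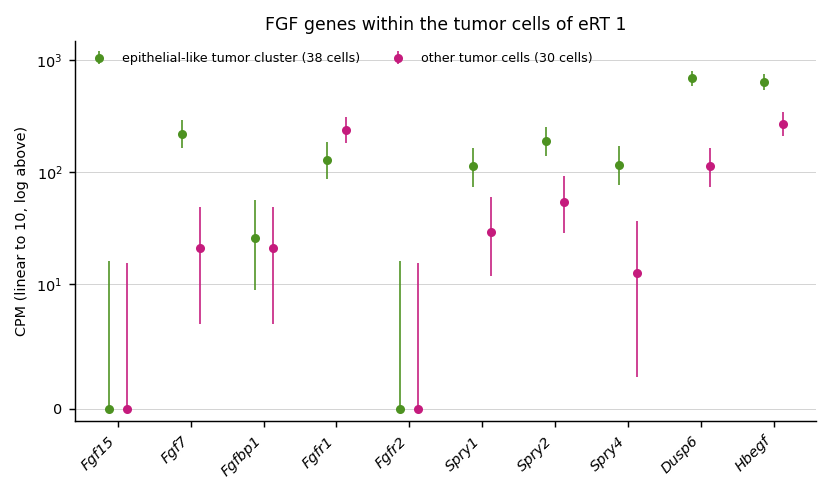
Level in CPM (linear to 10, logarithmic above) of the 10 genes in the epithelial-like tumor cluster (38 cells) and the other tumor cells (30 cells) of eRT 1; points are sums over cells and bars exact 95% Poisson intervals. Fgf7, Dusp6, Hbegf and the 3 Sprouty genes are higher in the epithelial-like cluster. Fgf15 and Fgfr2, which are not listed for eRT 1, are at 0 in both.

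Mitotic tumor cells were seen in eRT 3 and spinal 3. The marker rule, at least 3 mitotic markers among the 10 leading genes of a subcluster, was met by 46 cells of eRT 3 and missed by a spinal subcluster with 2 of them, Cenpf and Birc5, whose other leading genes include the mitotic genes Aurka and Bub1b. No test was run, and the values are given per tumor. In the 46 cells of eRT 3 Fgfr1 lay at 147 CPM, against 152 CPM in the 580 other tumor cells of eRT 3, and Spry1 at 51.6 against 73.6 CPM. In spinal 3, the 162 cells of the subcluster that the rule missed, led by Pbk, Ccna2 and Kif20a, held 26.7 CPM of Dusp6 against 66.1 CPM in the 1298 other tumor cells. They held 96.2 against 152 CPM of Fgfr1 and 1406 against 1073 CPM of Hbegf. Their median of 7628.5 UMIs per cell exceeded the 4484 UMIs of the other tumor cells.

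To see where the wider pathway lay, the genes of the list other than the members were tested between tumor cells and other cells of the 6 tumors with edgeR, with the tumor as a block. Since most other cells were immune-like, this is largely a contrast of tumor cells with immune-like cells. Normal tissue of the tumor sites was not compared. Of 52 genes tested, 11 were higher in tumor cells and 7 lower at an adjusted p under 0.05, or 21.2% and 13.5%. Over all 9712 genes tested, 12.1% were higher and 14.5% lower. The median log2 fold change was 0.42 over the list and -0.03 over all genes. Without spinal 3 the number of higher list genes was 7, given here without the share over all genes at that setting.

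Among the higher genes, the receptor of Hbegf stood first. Egfr, the EGF receptor, was 4.93 ± 0.55 (SE) higher on the log2 scale (edgeR adjusted p = 0.000209) and was higher in tumor cells of the 5 tumors that list it, at 37.2 ± 24.96 CPM (SD, n = 6) against 1.25 ± 1.59 CPM. Adam12, a protease that can shed Hbegf, was higher in 6 of 6 tumors (log2 fold change 4.53, adjusted p = 0.00247). Of the heparan sulfate genes, the syndecan Sdc2 rose (4.33, adjusted p = 0.000573, 6 of 6 tumors), as did Sulf1, a sulfatase that edits heparan sulfate (4.89, adjusted p = 0.038, 5 of 6 tumors), which passed in 13 of 19 alternatives. Fgf2 rose by 3.89 ± 0.49 (adjusted p = 0.000414) in the 5 tumors with it. Of the inhibitors, the Sprouty relatives Spred2 and Spred3 were higher, and of the ERK-induced targets Egr1 and Etv5.

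The genes lower in tumor cells include Dusp2 and Dusp1, phosphatases that act on nuclear MAP kinases and are abundant in immune cells. Dusp2 fell by 4.86 on the log2 scale (edgeR adjusted p = 0.000127) and Dusp1 fell by 2.80 (adjusted p = 0.00345), each in 6 of 6 tumors. The adaptor Grb2 fell by 1.64 (adjusted p = 0.00096, 6 of 6), the syndecan Sdc3 fell by 2.49 (adjusted p = 0.00869, 5 of 6) and the sheddase Adam17 fell by 1.04 (adjusted p = 0.0135, 5 of 6). Of the 10 genes of the RAS-ERK relay tested, 1 was called, Map2k1, which was lower.

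Dusp1 and Egr1 are also among 11 genes induced by tissue dissociation. Their summed level was 1997 to 3970 CPM in tumor cells and 2968 to 10483 CPM in other cells, highest in other cells of eRT 2, and its part in these results was not tested. Subclusters of tumor cells led by macrophage genes, 122 cells of spinal 3 and 33 of eRT 3, were counted as tumor cells, and without them the list counts were 10 and 7. Those counts are given without the shares over all genes.

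**Figure D4:**
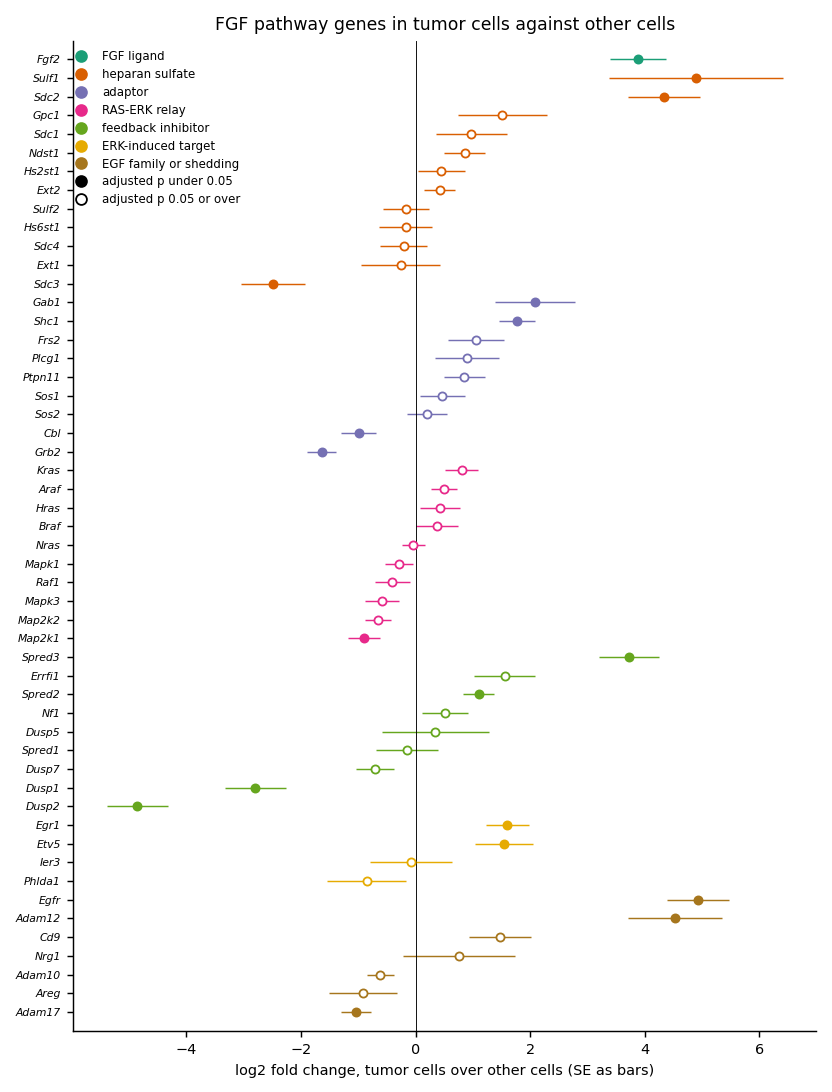
Log2 fold change of tumor cells over other cells for the 52 tested genes of the pathway list, by role, with SE bars; filled points passed an adjusted p of 0.05 in edgeR's quasi-likelihood test over 6 tumors. Egfr, Sulf1, Adam12, Sdc2 and Fgf2 lie farthest to the right and Dusp2, Dusp1 and Sdc3 farthest to the left.

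Between the tumor cells of eRT and MYC spinal tumors, edgeR called 0 of 38 list genes higher and 0 lower, as it did for 0% of all 5721 genes tested in either direction. At an unadjusted p under 0.05 the list counts were also 0 and 0, and DESeq2 called 0 list genes and 16 higher and 3 lower over all genes. With 3 tumors per group that differ as widely as spinal 1, spinal 2 and spinal 3 do, the comparison called no difference in the wider pathway and does not show that the subtypes are alike.

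Among immune-like cells, phagocyte-like cells (macrophage-, monocyte-, dendritic cell- and osteoclast-like) were compared with lymphoid-like cells (T cell-, NK cell- and B cell-like) in all 6 tumors, a contrast that did not choose the members. Of 36 member and list genes tested, edgeR called 10 higher and 2 lower in phagocyte-like cells, where 12.6% and 8.97% of all 7403 genes were called. The called member was Spry2. Phagocyte-like cells held 5.7, 27.7 and 6.7 CPM in spinal 1, spinal 2 and spinal 3, and 3.8, 6.9 and 0.50 CPM in eRT 1, eRT 2 and eRT 3. Lymphoid-like cells held 32.2, 91.2 and 91.0 CPM, and 90.6, 50.8 and 22.8 CPM.

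Spry2 was thus lower in phagocyte-like cells in 6 of 6 tumors, and it fell by 3.12 on the log2 scale (SE 0.44, edgeR adjusted p = 0.00238). It stayed past the threshold under all 12 alternatives, with an adjusted p of at most 0.028. Most of it was in NK cell-like cells, at 169, 782 and 174 CPM in spinal 1, spinal 2 and spinal 3 and 110, 170 and 65.9 CPM in eRT 1, eRT 2 and eRT 3. T cell-like cells of the same tumors held 5.4 to 47.3 CPM, and NK cell-like cells were the higher of the 2 in each tumor, a comparison made after the values were seen.

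Dusp6 did not pass the test. Phagocyte-like cells held 177, 36.6 and 34.2 CPM in the spinal tumors and 66.4, 76.1 and 126 CPM in the eRT, against 25.9, 58.9 and 53.3 CPM and 27.2, 30.02 and 11.4 CPM in lymphoid-like cells. It was higher in phagocyte-like cells in 4 of 6 tumors (log2 fold change 1.32, SE 0.59, edgeR adjusted p = 0.14, 0.0496 to 0.31 over the alternatives). Hbegf was higher in phagocyte-like cells in 3 of 6 tumors (log2 fold change -0.68, SE 0.95, adjusted p = 0.653), and the groups overlapped. The other called genes include the inhibitors Spred1 (2.18, adjusted p = 0.00456) and Dusp1 (1.505, adjusted p = 0.00366), higher in phagocyte-like cells of 6 of 6 tumors, and Dusp2, which was lower there in 6 of 6 (adjusted p = 0.0412) but passed in 5 of 12 alternatives. The count of higher genes depended on single tumors, with 3 without spinal 1, 4 without eRT 1, 2 without eRT 2 and 5 without eRT 3, and the count of lower genes was 1 without any one of spinal 1, spinal 2, spinal 3, eRT 1 and eRT 3. The shares over all genes without those tumors are not given, so only the list counts are compared.

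**Figure D5:**
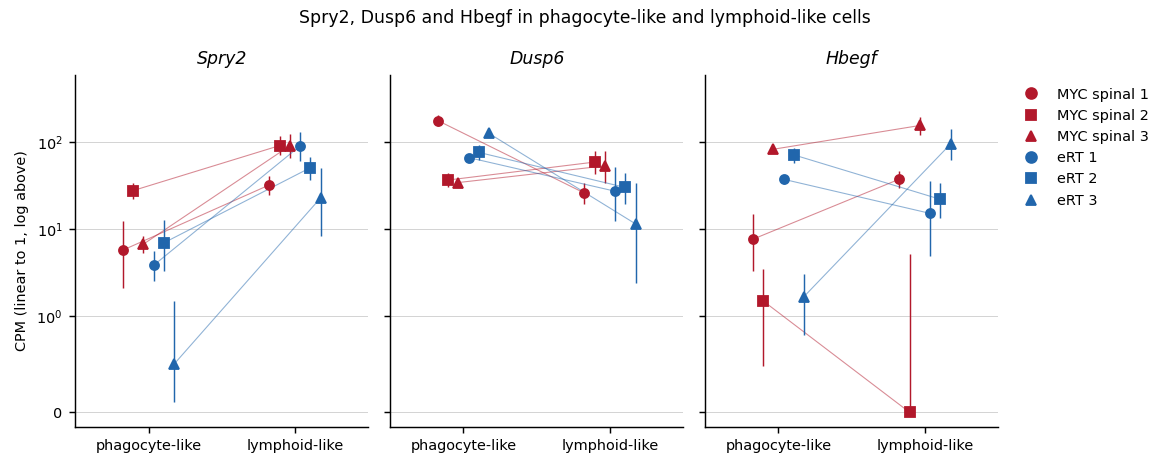
Spry2, Dusp6 and Hbegf in phagocyte-like and lymphoid-like cells in CPM (linear to 1, logarithmic above); each point is the sum over the cells of 1 tumor, bars are exact 95% Poisson intervals and lines join the values of a tumor. Spry2 rises toward lymphoid-like cells in all 6 tumors, and the lines of Dusp6 and Hbegf cross.

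The 250 bases before the transcription starts of Spry2, the called member, and of Dusp6, the other inhibitor tested, are shown to let the sequences be compared, from RefSeq on GRCm38.p6, on the strand of the gene. Promoters of 6 of the 10 members were at hand. Capitals would mark the 7-base ETS motif CCGGAAG or the AP-1 motif TGANTCA on either strand, sites of factors that ERK acts on. Neither set of letters occurs in these windows or in those of Fgf7, Fgfbp1, Fgfr2 and Spry1, and 6.91% and 6.75% of 32851 promoters of the same length hold them. This says only that those letters are not in this window. The shorter ETS core GGAA does occur in both windows shown and was not marked. The Spry2 window is chr14:105896820-105897069 on the minus strand and that of Dusp6 is chr10:99262981-99263230 on the plus strand, and their GC content is 62.4% and 56.4%.
Spry2: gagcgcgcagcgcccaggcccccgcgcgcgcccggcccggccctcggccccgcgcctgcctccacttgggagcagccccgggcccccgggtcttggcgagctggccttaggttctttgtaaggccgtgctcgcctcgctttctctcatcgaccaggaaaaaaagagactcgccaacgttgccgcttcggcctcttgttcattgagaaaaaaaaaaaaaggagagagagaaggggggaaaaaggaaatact
Dusp6: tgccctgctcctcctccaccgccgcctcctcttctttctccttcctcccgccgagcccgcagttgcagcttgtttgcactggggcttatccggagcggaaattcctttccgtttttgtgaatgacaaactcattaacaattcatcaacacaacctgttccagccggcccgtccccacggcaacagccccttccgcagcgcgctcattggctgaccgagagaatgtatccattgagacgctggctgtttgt

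Neutrophil-like cells could be compared with phagocyte-like cells in spinal 2, spinal 3 and eRT 2. Of 43 member and list genes tested, edgeR called 1 higher and 0 lower, against 6% and 2.37% of all 7297 genes. The called gene was Cd9, a tetraspanin that binds the Hbegf precursor (log2 fold change 2.62, SE 0.63, adjusted p = 0.0337), and without spinal 2 it was not called. At an unadjusted p under 0.05 the list held 10 higher and 7 lower genes, and DESeq2 called 3 and 1. The shares over all genes for those counts are not given, so nothing is read from them. No member passed: Hbegf was -0.995 (adjusted p = 0.212, 0.0356 to 0.727 over 9 alternatives, past the threshold without TMM factors), Dusp6 0.68 (adjusted p = 0.536), Spry2 0.57 (adjusted p = 0.604) and Fgfr1 0.34 (adjusted p = 0.815) on the log2 scale.

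The pattern of each member was compared with 13465 genes over 43 sums of cells, 1 for each tumor and cell class. These sums share libraries and differ in depth, so the correlations of log2(CPM + 10) are a description. The sums also cover both tumor cells and other cells, so the contrast that chose the members enters each r. Fgfr1 was most like Pdgfra, a mesenchymal receptor (r = 0.95), then Cdc42ep5 and Fkbp10. Spry4 was most like Tead1 (r = 0.96), Fgf15 like Ostn (r = 0.95), Fgf7 like Dmtn (r = 0.96) and Fgfr2 like Gfpt2 (r = 0.98), the last 2 resting on few sums with any UMI.

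Among the members themselves, Fgfr1 and Spry4 had the highest correlation (r = 0.85). Spry1 correlated with both, at 0.64 with Fgfr1 and 0.67 with Spry4. Correlation within tumor cells alone was not tested. Tumor-cell Fgfr1 was highest in spinal 1 (579 CPM), where Spry4 lay at 23.7 CPM. Spry4 was highest in spinal 3 (69.3 CPM), where Fgfr1 was lowest, at 143 CPM. The eRT ranked alike for Fgfr1 and Spry4, with eRT 1 highest (186 and 64.1 CPM). Dusp6 followed no other member closely, with its highest r at 0.25, and Spry2 was near 0 with Fgfr1 (r = -0.03). The nearest gene to Spry2 was Ugcg (r = 0.76), followed by Klrb1f, a receptor of NK cells, and that of Dusp6 was Tm9sf2 (r = 0.61).

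On GRCm38, Fgfr1 spans chr8:25513654-25575718 on the plus strand, and Fgf15 spans chr7:144896531-144900953 on the plus strand, on the chromosome that also holds Fgfr2. Fgf7 spans chr2:126034658-126091185 and Spry1 chr3:37639947-37644598, both on the plus strand, and Fgfbp1 chr5:43978858-43981779 on the minus strand. The UMIs count transcript 3′ ends and so do not resolve the splice forms of Fgfr1 and Fgfr2.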

How the data were processed

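The deposited tables hold, per the labels and the authors' methods, counts of UMIs per gene and cell, without normalization, from the 10x Genomics 3′ v2 chemistry, aligned by the authors to mm10 with Cell Ranger 2.0.2 from the submitters' processing notes. Samples were assigned to tumors by the mouse number in their labels, and 0 per-sample columns were left unused. Cell names in the tables are serial, so barcodes shared between libraries were not counted. Live cells had been sorted by the authors after enzymatic dissociation.

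A cell was retained if it had 200 or more genes and no more than 25% of its UMIs from mitochondria. The 3 tumors of each subtype were joined by Seurat 5.3.0 anchors on 2000 variable genes without the members, the pathway list and Smarcb1, and clustered on 30 dimensions with 20 neighbors at resolution 0.8. Clusters were named from at least 3 raised markers. Scrublet called only 21 cells and so had not worked, and no doublets were removed. UMIs were summed per tumor and kind of cell with at least 10 cells and tested with edgeR 4.0.16 (quasi-likelihood, TMM, filterByExpr, Benjamini-Hochberg at 0.05 over all genes), with the tumor as a block where kinds of cell of the same animals were compared. DESeq2 1.42.0 and other alternatives are given in the closing section. The scripts were tested on simulated data. Intervals and the limit of 3 counts for a count of 0 cover counting error only, not UMIs of genes missing from a tumor's list. Each of the 3 tumors of a group is 1 animal.

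The members and the lists were chosen with earlier results of these data known. The text names the 10 members and, of the list, the genes past the threshold, with values for at most the 5 with the largest fold change in each direction and a mean of at least 5 CPM in the higher kind. Levels of Fgf10, Fgf17 and Fgf1, and of clusters, were named after their values were seen.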

Additional observations from a re-analysis of the deposited data

Results flagged for a closer look

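Spry1 moved in opposite directions in the 2 subtypes: tumor cells were lower than other cells in 3 of 3 MYC spinal tumors (mean difference -1.79 ± 0.644 CPM, SD, n = 3) and higher in 3 of 3 eRT (48.0 ± 22.9 CPM, SD, n = 3). The difference between the subtypes was not tested, since the genes were chosen with these values known. The spinal differences are small against counting error, with 0 UMIs in the 15 tumor cells of spinal 2, 2 UMIs in spinal 1, and an interval of 10.8 to 16.0 CPM in tumor cells of spinal 3 against 14.9 CPM in its other cells.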

How the results depend on the processing

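The 6 members higher in tumor cells of every tumor that held them remained those 6 under other cell filters, resolutions and Smarcb1 limits, and without the macrophage-led subclusters, an alternative added after seeing the data. Leaving out each tumor gave 6 to 7, Spry2 joining without spinal 1. Of 400 alternative values for the members' group means, 399 moved by less than 1 SD. This count cannot show that the means are stable. In groups this small, leaving out a tumor cannot move the mean by 1 SD of the group. The lower Smarcb1 limit left the same tumor cells and other cells as the main setting. Several SDs also exceeded their means, so nothing is read from the count.

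The counts of list genes from here on are given without the share over all genes at the same setting. They show only how far the list counts moved. Of list genes in tumor cells, 23 were higher when every gene with at least 1 UMI was tested, and 3 were lower in the MYC spinal tumors alone. With each tumor left out, 7 to 12 were higher and 5 to 6 lower. With no replicate block, 8 were higher and 5 lower, and no replicate block was part of the subtype comparison, whose counts stayed at 0.

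For phagocyte-like against lymphoid-like cells, 6 genes were higher without TMM factors, and 1 was lower under stricter cell filters. With no replicate block 4 were higher and 1 lower, and leaving out each tumor gave 2 to 9 higher and 1 to 3 lower. Hbegf ranged from -1.39 to 0.18 with each tumor left out, its only change of sign being without eRT 3.

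For neutrophil-like cells, 8 genes were lower without TMM factors, 3 higher and 1 lower with DESeq2, 2 higher and 6 lower with every gene tested, and 1 lower under stricter filters. With no replicate block 0 were higher, and leaving out each tumor gave 0 to 2 higher and 0 to 5 lower. Hbegf passed without TMM factors (-1.60, adjusted p = 0.0356). The uncalled log2 fold changes turned sign without TMM factors (Fgfr1 -0.28, Spry2 -0.0909, Dusp6 -0.00579), with no replicate block (Fgfr1 -0.0110), under stricter filters (Spry2 -0.23), without eRT 2 (Fgfr1 -0.00146, Spry2 -0.0212) and without spinal 2 (Dusp6 -0.48). With each tumor left out, Spry2 went up to 0.31 without spinal 3 and Dusp6 to 1.51 without eRT 2. The cause of these changes was not tested. The planned test of mitotic against other tumor cells was not run, since the marker rule was met in 1 tumor alone. A mitotic subcluster of spinal 3 missed that rule, and a test with it was not run. Depth limits the 15 tumor cells of spinal 2 most.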
